A study of Homo sapiens with 54 samples.

Results

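ATF4, ATF3, DDIT3, TRIB3, CHAC1, ASNS, SESN2, DDIT4, PSAT1 and CEBPB are core genes of the integrated stress response, and they are described here across 6 high-grade serous ovarian cancer cell lines before and during carboplatin. They are the rows with these 10 symbols in a table of 25435 genes, a rule that uses no measured value, although the list was drawn up with earlier results of these data known. All 10 were found in the table and all 10 passed the filter on low values, among 18013 genes tested. The lines form 3 pairs, each pair derived from the same patient: the platinum-sensitive lines PEA1, PEO1 and PEO14 and their resistant partners PEA2, PEO4 and PEO23, respectively. Cultures of each line were taken untreated, or 8 h or 24 h into exposure to carboplatin at 80 µM. Carboplatin is a platinum compound that crosslinks DNA. There were 3 replicates in each of 18 groups, and the experiment was repeated on 3 different days per the series text. The series text gives the dose in mM and the treatment protocol in µM. It also describes the control as a vehicle culture harvested at 24 h, while the labels call it untreated. Each state is represented by 1 line per pair, so a difference within a pair is a difference between those lines.

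The integrated stress response is the program by which cells slow general translation and favour repair. Kinases that sense endoplasmic reticulum stress, amino acid shortage, double-stranded RNA or haem shortage phosphorylate the initiation factor eIF2, and the ATF4 messenger RNA is then translated more while most others are translated less. ATF4 protein switches on amino acid enzymes and further transcription factors, and prolonged activity can end in cell death through the product of DDIT3. Much of the control of ATF4 is therefore translational, and RNA abundance reports only part of its activity.

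The members have different roles. ATF4 is the central transcription factor, and ATF3 and DDIT3 (also called CHOP) are stress-induced factors of the same bZIP class. CEBPB encodes another bZIP factor that can pair with them. TRIB3 is a pseudokinase that feeds back on the response and on AKT. CHAC1 degrades glutathione, ASNS makes asparagine, and PSAT1 carries out a step of serine synthesis. SESN2 and DDIT4 (also called REDD1) restrain the growth kinase mTORC1.

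ATF4 acts at DNA through a composite element of a C/EBP and an ATF site, whose core was searched as TGATGNAA on both strands. The stretches printed next hold a match and so show which members carry such letters close to a start site. They are the 250 bases upstream of an annotated transcript start, from RefSeq on GRCh38.p14, written 5′ to 3′ on the strand of the gene, with the matching motif in capitals.

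ASNS promoter, chr7:97872409-97872658, minus strand: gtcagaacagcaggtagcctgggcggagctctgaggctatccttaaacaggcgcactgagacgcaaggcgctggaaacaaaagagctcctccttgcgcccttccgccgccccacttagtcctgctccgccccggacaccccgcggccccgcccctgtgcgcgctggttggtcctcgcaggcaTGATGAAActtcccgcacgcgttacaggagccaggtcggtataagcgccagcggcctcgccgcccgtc

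CHAC1 promoter, chr15:40953221-40953470, plus strand: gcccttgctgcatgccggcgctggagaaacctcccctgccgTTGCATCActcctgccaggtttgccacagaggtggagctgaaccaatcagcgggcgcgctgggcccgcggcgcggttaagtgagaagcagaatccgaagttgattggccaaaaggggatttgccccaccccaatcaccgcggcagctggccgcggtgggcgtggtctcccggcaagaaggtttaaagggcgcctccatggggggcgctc

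ATF3 promoter, chr1:212565157-212565406, plus strand: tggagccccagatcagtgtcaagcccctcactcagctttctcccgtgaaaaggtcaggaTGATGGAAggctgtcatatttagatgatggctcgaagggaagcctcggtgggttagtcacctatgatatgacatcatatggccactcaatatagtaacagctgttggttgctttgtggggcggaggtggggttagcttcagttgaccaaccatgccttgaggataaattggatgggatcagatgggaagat

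DDIT3 promoter, chr12:57520515-57520764, minus strand: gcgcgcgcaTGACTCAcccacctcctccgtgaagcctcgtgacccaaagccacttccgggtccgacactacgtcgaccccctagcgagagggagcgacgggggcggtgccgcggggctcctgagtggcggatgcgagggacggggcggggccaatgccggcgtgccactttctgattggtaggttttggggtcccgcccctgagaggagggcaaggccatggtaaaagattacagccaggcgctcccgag

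In the ASNS window the match TGATGAAA began 68 bases upstream of the start. In CHAC1 the capitals TTGCATCA are the element read from the other strand, 209 bases upstream. The match in ATF3 was TGATGGAA, 191 bases upstream. In DDIT3 the capitals mark TGACTCA, a match to the AP-1 motif TGANTCA, 241 bases upstream, and that window had no match to the other motif. All 10 members matched RefSeq entries, with 17 windows. Of all 35116 windows of this length, 3.14% held the ATF4 core, 6.57% held the AP-1 motif and 1.65% held the cyclic AMP response element TGACGTCA, which no member window held. A match is a description of letters, not of binding, and its absence says only that those letters are not in that window. No match to one motif overlapped a match to another in these windows.

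The values are TPM, a length-adjusted share of transcripts that does not retain how deeply a library was sequenced. Library depth is therefore unknown here, and no counting error can be given. Of 54 libraries, 12 listed fewer than 12000 genes above 0 TPM (2678 to 11754) and were set aside, and the other 42 listed 12877 to 17133. No untreated PEO23 library was kept. PEA1 untreated, PEO4 at 24 h and PEO14 at 24 h kept 1 library each, and the model lends them the spread of the rest. Ribosomal protein genes made up 7.70% to 14.7% of TPM in the 13 untreated libraries and 14.9% to 25.1% in the 29 treated ones, with no overlap. The non-coding RNAs RMRP and RPPH1 took 7.14% to 45.6% of a library. TPM was therefore rescaled by the median ratio over 8287 genes, by factors of 0.256 to 1.70. Every level given for a gene is rescaled TPM unless stated otherwise, and statements on overlap or order of libraries cover the kept ones. Log2 changes are differences of log2(rescaled TPM + 1), which understates the change of low genes, with standard errors (SE) from limma. The serous and epithelial markers PAX8, EPCAM, KRT7, KRT8 and KRT18 were above 0 in all 42 libraries. Others of that list were at 0 in some: FOLR1 in 17, MSLN in 7, MUC16 in 6, WT1 in 3 and CDH1 in 3. The summed level of the 10 markers was 622 to 934 in PEA1 and 2471 to 12047 in the other lines. Of markers of other cells, CD3E was listed at 0 in all 42, DCN in 41, COL3A1 in 39, LYZ in 38 and PECAM1 in 34. CD14 was at 0 in only 11 and COL1A1 in only 2, with COL1A1 reaching 62.3. The endothelial list summed to 108 to 156 in PEA2, almost all of it CDH5, and to at most 22.1 elsewhere; its part in the PEA2 results was not tested.

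**Figure D1:**
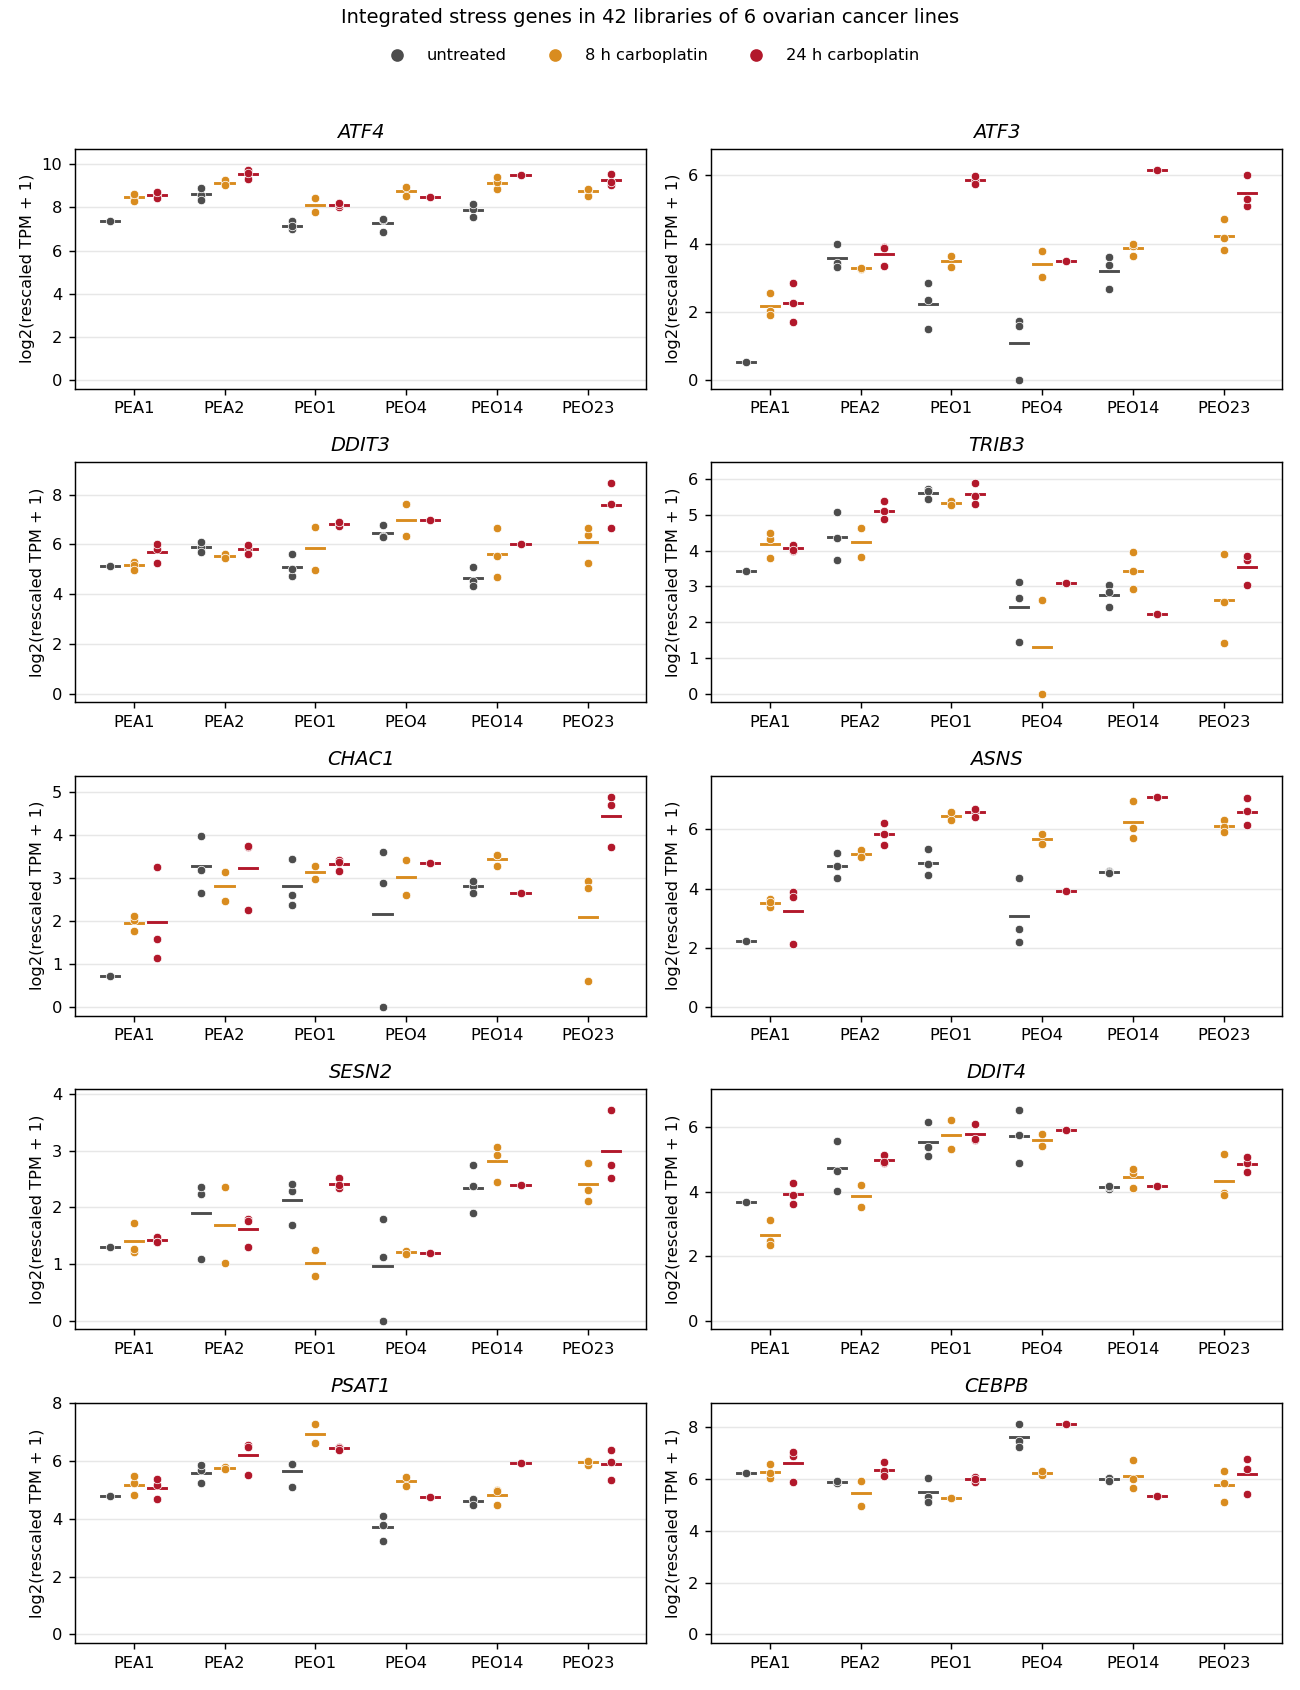
Level of each member as log2(rescaled TPM + 1) by cell line, with points for single libraries, colours for untreated, 8 h and 24 h of carboplatin, and bars for group means. ATF4 is high in every library (116 to 858 rescaled TPM), while SESN2 stays between 0 and 12.1 and TRIB3 is highest in PEO1.

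Members were called where the adjusted p from limma was under 0.05 by the Benjamini-Hochberg method over the 18013 genes. After 8 h of drug the call counts were 1 of 10 higher in PEA1, where 5.90% of all genes were called, and 0 of 10 in PEA2, where 14.3% were, with 1 member at an unadjusted p under 0.05. PEO1 had 4 higher and 1 lower against 41.9% of all genes, and PEO4 also had 4 higher and 1 lower against 53.5%. PEO14 had 2 higher against 30%. In these 3 lines the share of members called was thus close to or below that of genes at large. After 24 h, 1 member was higher in PEA1 against 6.01% of all genes and 1 in PEA2 against 17.2%. There were 5 higher in PEO1 against 38.6%, 2 in PEO4 against 20%, and 4 in PEO14 against 36.1%, and none was lower at 24 h.

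After rescaling, the median change of the members at 8 h was 0.58 in PEA1, -0.25 in PEA2, 0.53 in PEO1, 0.68 in PEO4 and 0.64 in PEO14, beside medians of -0.24 to 0 over all tested genes. At 24 h the members' medians were 0.60, 0.36, 0.66, 0.76 and 0.68 in the same order, beside -0.27 to 0. The 8 h and 24 h comparisons of a line share their untreated libraries. Untreated and treated cultures had overlapping passage labels in only 1 of 18 cases, so passage and treatment cannot be told apart. In bulk RNA, fewer cells expressing a gene and less RNA of it per cell cannot be told apart either.

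Scaling touches each change against untreated. With TPM as deposited, the median over all genes moved by -0.33 and -0.36 in PEA1, -0.31 and -0.34 in PEA2, -1.14 and -0.48 in PEO1, -1.12 and -0.47 in PEO4, and -0.60 and -1.12 in PEO14 at 8 h and 24 h. Under that scaling 0 members were called higher and 9 lower over the 5 lines at 8 h, against 11 higher and 2 lower after rescaling. At 24 h the counts were 3 higher and 1 lower, against 13 higher and 0 lower. The higher calls left with TPM as deposited were ATF3 in PEO1 (3.18, adjusted p = 7.02e-06) and PEO4 (2.02, adjusted p = 0.0422) and DDIT3 in PEO1 (1.16, adjusted p = 0.0095), all at 24 h. The members' median on the deposited scale at 8 h was 0.18 in PEA1, -0.61 in PEA2, -1.05 in PEO1, -0.44 in PEO4 and 0.11 in PEO14, so it turned below 0 in PEO1 and PEO4. At 24 h it was 0.15, -0.08, 0.14, 0.30 and -0.54, so it turned below 0 in PEA2 and PEO14. In PEO1 at 8 h 7 members above 0 after rescaling were below 0 as deposited, among them CHAC1 (-1.13). Between 1 and 4 members turned sign in each of the other 9 comparisons. Rescaled changes are therefore changes relative to the median ratio of the 8287 genes above 0 in every kept library.

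**Figure D2:**
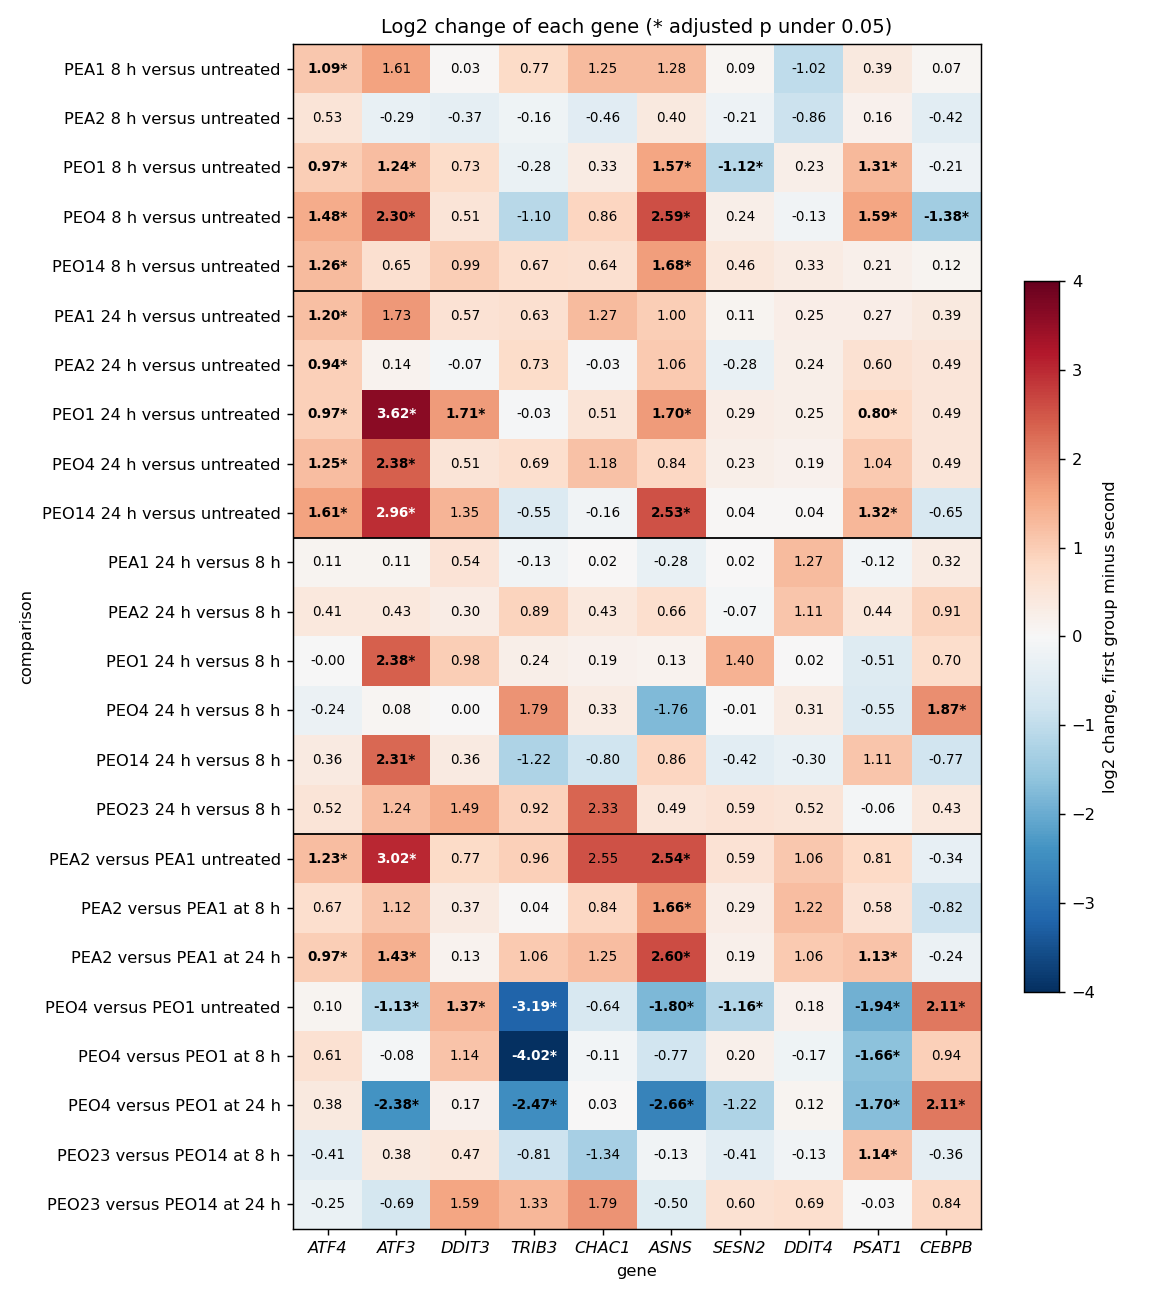
Colour gives the log2 change of each member on log2(rescaled TPM + 1) in 24 comparisons of times and lines, with a star where the adjusted p is under 0.05. ATF4 is called in 9 of the 10 comparisons with untreated cultures on this scale and in 0 of the 10 with TPM as deposited, where it is below 0 in PEO1 and PEO4 at 8 h. TRIB3, CHAC1 and DDIT4 are called in none of the 10 after rescaling.

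On the rescaled values, ATF4 RNA rose in all 5 lines by 24 h and in 4 of them by 8 h, by 0.94 to 1.61 on the log2 scale. None of these 9 calls remained with TPM as deposited or with all 54 libraries. In PEA1, ATF4 stood at 166 in the 1 untreated library, at 364, 310.1 and 396 at 8 h, and at 393, 341 and 423 at 24 h. PEA2 started higher, at 386, 482 and 325, and reached 612 and 525 at 8 h and 858, 645 and 771 at 24 h. Kept treated and untreated libraries did not overlap in either line after rescaling. In the fit of all 54 libraries, the set-aside PEA1 untreated replicates 2 and 3 stood at 225 and 387. Replicate 3 was thus inside the treated PEA1 range of that fit, 335 to 430. The change in PEA1 was 1.09 ± 0.31 at 8 h (SE, adjusted p = 0.0345) and 1.20 ± 0.31 at 24 h (adjusted p = 0.0166) by limma. In PEA2 it was 0.53 ± 0.25 at 8 h (adjusted p = 0.16), which was not called, and 0.94 ± 0.22 at 24 h (adjusted p = 0.00324). The PEA1 call at 8 h was lost without 8 h replicate 1 (1.07, adjusted p = 0.0711) or 8 h replicate 3 (1.01, adjusted p = 0.0915), and with a replicate block (adjusted p = 0.0666).

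In the other pairs ATF4 behaved alike in direction. PEO1 had 163, 125 and 139 untreated, 221 and 350.3 at 8 h, and 262, 278 and 294 at 24 h. PEO4 had 172, 177 and 116 untreated, 374 and 488 at 8 h, and 362 in its 1 library at 24 h. PEO14 went from 243, 189.6 and 287 to 464, 582 and 672, and to 725 in its 1 library at 24 h. No kept treated library of these lines overlapped its kept untreated ones after rescaling. In the fit of all 54 libraries, set-aside PEO4 8 h replicate 3 (121) and 24 h replicate 3 (139) lay within untreated PEO4 (91.4 to 142). PEO14 24 h replicate 3 (193) lay within untreated PEO14 (167 to 234). The other set-aside treated libraries of these lines lay above their untreated ones. As deposited, both kept PEO1 8 h libraries (175 and 89.8) lay below every untreated PEO1 one. At 8 h the change was 0.97 ± 0.25 in PEO1 (adjusted p = 0.00221), 1.48 ± 0.25 in PEO4 (adjusted p = 1.02e-05) and 1.26 ± 0.22 in PEO14 (adjusted p = 7.24e-05) by limma. At 24 h it was 0.97 ± 0.22 in PEO1 (adjusted p = 0.000975), 1.25 ± 0.31 in PEO4 (adjusted p = 0.00527) and 1.61 ± 0.31 in PEO14 (adjusted p = 0.000219). With a replicate block the PEO4 value at 24 h was 0.95 and was not called (adjusted p = 0.0546). Without PEO1 8 h replicate 2 the PEO1 value at 8 h was 0.64 and was not called (adjusted p = 0.119). PEO23, which has no kept untreated library, stood at 452, 372 and 459 at 8 h and at 749, 525 and 575 at 24 h.

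Ribosomal protein genes moved in the same comparisons to differing extents. Of 79 such genes, 2 were called higher in PEA1 at 8 h and 0 at 24 h, 18 and 35 in PEA2, 77 and 57 in PEO1, 76 and 58 in PEO4, and 71 and 75 in PEO14. Their median change at 8 h and 24 h was 1.12 and 1.10 in PEA1, 0.99 and 1.06 in PEA2, 2.52 and 1.39 in PEO1, 3.07 and 1.75 in PEO4, and 1.54 and 2.58 in PEO14. With TPM as deposited the ATF4 change at 8 h was 0.66, 0.13, -0.76, -0.17 and 0.66 in that order of lines, so it turned below 0 in PEO1 and PEO4. At 24 h it was 0.72, 0.49, 0.41, 0.73 and 0.23. The part of composition in the ATF4 result was not tested.

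**Figure D3:**
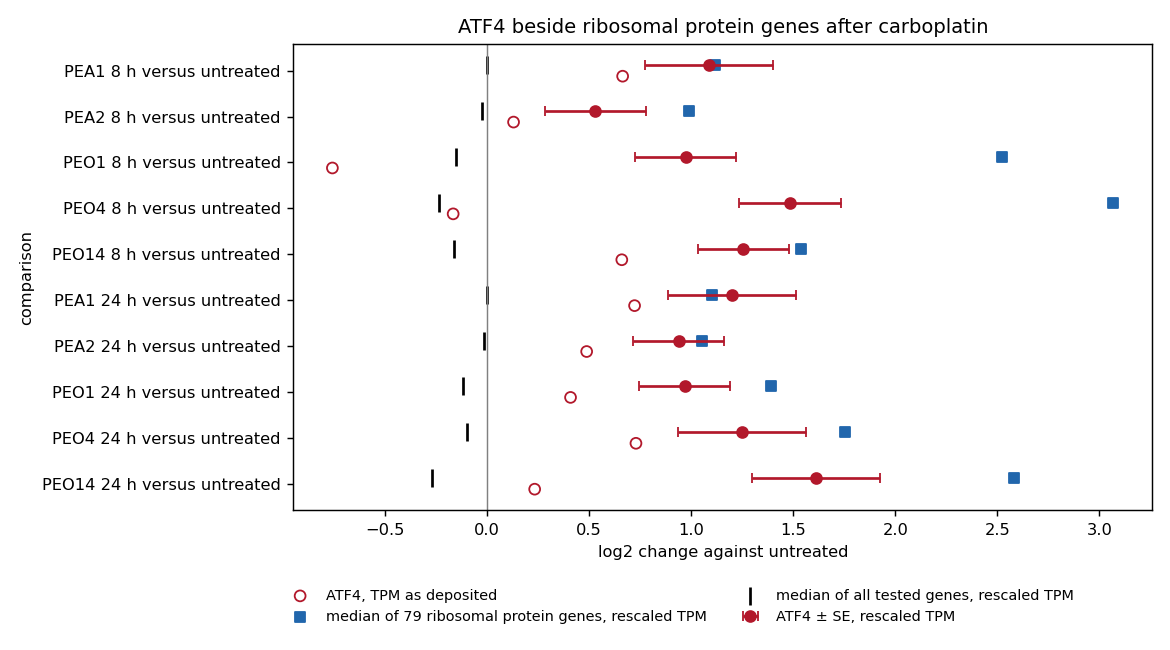
Log2 change against untreated for ATF4 after rescaling (with SE), ATF4 in TPM as deposited, the median of 79 ribosomal protein genes and the median of all genes tested, in 5 lines at 8 h and 24 h. The ribosomal protein median reaches 3.07 in PEO4 at 8 h, where ATF4 is 1.48 after rescaling and -0.17 as deposited.

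ATF3, a fast-induced repressor and activator of stress genes, rose between 8 h and 24 h in PEO1 and PEO14. PEO1 had 1.84, 6.24 and 4.08 untreated, 8.97 and 11.5 at 8 h, and 56.2, 52.8 and 62.6 at 24 h. PEO14 had 11.2, 5.32 and 9.35 untreated, 11.5, 14.3 and 15.0 at 8 h, and 70.9 in its 1 library at 24 h. Every 24 h library of these lines stood far above all earlier ones. The 24 h change against untreated was 3.62 ± 0.39 in PEO1 (adjusted p = 5.23e-08) and 2.96 ± 0.56 in PEO14 (adjusted p = 0.000153) by limma. Between 8 h and 24 h, ATF3 rose by 2.38 ± 0.44 in PEO1 (adjusted p = 0.00665) and by 2.31 ± 0.56 in PEO14 (adjusted p = 0.024). The PEO1 step was 2.54 without PEO1 8 h replicate 2 and was not called (adjusted p = 0.0965). On the deposited scale the PEO14 values were 1.64 for 24 h against untreated (adjusted p = 0.0598) and 1.53 for the step (adjusted p = 0.276). The PEO14 step was 2.38 without PEO14 8 h replicate 3 (adjusted p = 0.0533), and 2.22 with the replicate number as a block (adjusted p = 0.0666). The earlier rise in PEO1 at 8 h, 1.24 ± 0.44 (adjusted p = 0.0232), was lost without untreated replicate 1 (0.88, adjusted p = 0.137) or 8 h replicate 2 (1.08, adjusted p = 0.169) and was -0.21 with TPM as deposited.

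PEO4 had ATF3 at 2.32, 0 and 1.99 untreated, 12.8 and 7.10 at 8 h, and 10.2 in its 1 library at 24 h. It rose by 2.30 ± 0.44 at 8 h (adjusted p = 6.23e-05) and by 2.38 ± 0.56 at 24 h (adjusted p = 0.00297), and the 8 h value was 1.03 and not called with TPM as deposited (adjusted p = 0.115). Set-aside PEO4 24 h replicates 1 and 3 listed ATF3 at 0, and the PEO4 change at 24 h was 0.084 and not called with all 54 libraries. PEA1 went from 0.463 untreated to 3.10, 2.73 and 4.87 at 8 h and 3.85, 6.16 and 2.28 at 24 h. Its changes of 1.61 (adjusted p = 0.0866) and 1.73 (adjusted p = 0.0611) by limma rest on 1 untreated library and were not called. PEA2 values overlapped across the times, with 14.8, 9.81 and 8.90 untreated, 8.62 and 8.85 at 8 h, and 14.1, 9.09 and 13.7 at 24 h. PEO23 had 25.6, 12.95 and 17.1 at 8 h and 63.1, 33.7 and 39.0 at 24 h, which do not overlap, with a change of 1.24 (adjusted p = 0.197).

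DDIT3, the pro-apoptotic factor CHOP, was called only in PEO1 at 24 h among the comparisons with untreated cultures. PEO1 had 25.4, 30.9 and 47.5 untreated, 30.1 and 103.98 at 8 h, and 112, 104.7 and 119 at 24 h. The 2 libraries at 8 h thus lay far apart, one among the untreated values and one next to those at 24 h. The 24 h change was 1.71 ± 0.45 (adjusted p = 0.00332). PEO14 had 22.4, 18.9 and 32.7 untreated, 25.0, 45.8 and 99.2 at 8 h, and 62.8 at 24 h. With the replicate number as a block the PEO14 change of 0.99 at 8 h passed as well (adjusted p = 0.038 by limma), and the value at 24 h was 1.87. The labels do not pair untreated with treated cultures, so this block joins cultures not shown to be pairs. PEO4 stood at 80.3, 76.9 and 109 untreated, 80.2 and 196 at 8 h, and 126 at 24 h, with overlap. The highest rescaled value of a kept library was in PEO23, which had 83.3, 37.2 and 99.1 at 8 h and 350.2, 100.1 and 199 at 24 h. As deposited, the PEO23 values at 24 h were 128, 118 and 131, below 145 in PEO4 untreated replicate 3. Set-aside PEO4 24 h replicate 3 stood at 403 in the fit of all 54 libraries, where PEO23 reached 371. The PEO23 step of 1.49 was not called (adjusted p = 0.179). PEA1 ranged from 30.8 to 63.3 and PEA2 from 42.3 to 67.9 over all times. In GENCODE v29 the gene AC022506.1 overlaps DDIT3 on the same strand over 2769 bases, as does MIR616 over 97 bases, and MARS and MBD6 overlap it on the opposite strand. How strand was used in counting is not given in the sources used here, and these levels are uncertain.

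CEBPB, whose protein pairs with ATF4 and CHOP, was the member called lower in PEO4 after rescaling. PEO4 had 175, 274 and 148 untreated, 68.7 and 77.3 at 8 h, and 269.6 in its 1 library at 24 h. Both 8 h libraries lay below every other library of that line. CEBPB fell by 1.38 at 8 h (SE 0.39, adjusted p = 0.00354), and it rose by 1.87 ± 0.52 from 8 h to 24 h (adjusted p = 0.0191). The step from 8 h to 24 h was 1.96 without PEO4 8 h replicate 2 and was not called (adjusted p = 0.0783). The fall at 8 h turned to 0.06 in a fit of all 54 libraries. In the other lines CEBPB was not called over time after rescaling, with 57.1 to 129.7 in PEA1, 30.2 to 98.5 in PEA2 and 33.6 to 66.2 in PEO1. It had 39.2 to 103.9 in PEO14 and 33.1 to 106.1 in PEO23. With TPM as deposited, CEBPB was among the 5 members called lower in PEO1 at 8 h, so a fall there was not particular to PEO4. CEBPB-AS1 overlaps CEBPB on the opposite strand in GENCODE v29.

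ASNS, asparagine synthetase and a textbook ATF4 target, rose in PEO1, PEO4 and PEO14 at 8 h. PEO1 had 20.9, 27.4 and 39.4 untreated, 78.7 and 93.5 at 8 h, and 97.8, 101.4 and 83.5 at 24 h. PEO14 had 22.8, 22.7 and 22.0 untreated, 123, 64.2 and 51.3 at 8 h, and 135 in its 1 library at 24 h. Every treated library of these lines exceeded every untreated one. The change in PEO1 was 1.57 ± 0.46 at 8 h (adjusted p = 0.00725) and 1.70 ± 0.41 at 24 h (adjusted p = 0.00178) by limma. In PEO14 it was 1.68 ± 0.41 at 8 h (adjusted p = 0.0026) and 2.53 ± 0.59 at 24 h (adjusted p = 0.00123). The PEO1 call at 8 h was lost without 8 h replicate 2 (1.44, adjusted p = 0.0772), and that value was -0.13 with TPM as deposited and -0.30 in a fit of all 54 libraries. The other ASNS calls in these lines were also lost with TPM as deposited, at 1.15 in PEO1 at 24 h (adjusted p = 0.114), and 1.10 at 8 h (adjusted p = 0.146) and 1.18 at 24 h (adjusted p = 0.253) in PEO14.

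PEO4 had ASNS at 5.27, 3.65 and 19.5 untreated, at 56.4 and 43.9 at 8 h, and at 14.0 in its 1 library at 24 h. It rose by 2.59 ± 0.46 at 8 h (adjusted p = 2.6e-05), or 1.03 and not called with TPM as deposited (adjusted p = 0.175), and 3.23 without untreated replicate 3 (adjusted p = 2.92e-07). The 24 h library lay inside the untreated range. The change at 24 h was 0.84 and was not called (adjusted p = 0.339), while a replicate block gave 1.67 (adjusted p = 0.0314). PEA2 had 19.4, 35.9 and 26.3 untreated, 38.0 and 32.4 at 8 h, and 72.1, 56.0 and 43.6 at 24 h. Its 24 h libraries stood above all others of that line, with a change of 1.06 ± 0.41 that missed the threshold (adjusted p = 0.0781), or 0.0322 as the adjusted p with a replicate block. Both ASNS block values join untreated with treated cultures that the labels do not pair. PEA1 was lowest, at 3.71 untreated, 9.36, 11.4 and 10.7 at 8 h, and 13.6, 12.05 and 3.36 at 24 h. PEO23 had 78.0, 66.9 and 59.3 at 8 h and 96.3, 130.4 and 68.9 at 24 h. In GENCODE v29 the transcript AC079781.5 overlaps ASNS on the same strand over 20425 bases and a pseudogene overlaps it on the opposite strand over 123 bases, so the ASNS levels are uncertain.

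PSAT1, phosphoserine aminotransferase, rose in PEO1 and PEO4 at 8 h, as ASNS did. PEO1 had 58.9, 33.7 and 58.5 untreated, 97.2 and 155 at 8 h, and 89.0, 85.9 and 82.9 at 24 h. PEO4 had 12.7, 16.1 and 8.38 untreated, 42.8 and 34.2 at 8 h, and 25.8 at 24 h. No treated library overlapped the untreated ones in either line. PSAT1 rose at 8 h by 1.31 ± 0.33 in PEO1 (adjusted p = 0.0019) and by 1.59 ± 0.33 in PEO4 (adjusted p = 0.000156) by limma. In PEO1 at 24 h the change was 0.80 ± 0.29 (adjusted p = 0.0308), or 0.25 and not called with TPM as deposited. PEO14 had 24.4, 24.6 and 21.5 untreated, 31.2, 30.4 and 21.3 at 8 h, and 59.9 in its 1 library at 24 h. That library set the PEO14 change of 1.32 ± 0.42 at 24 h (adjusted p = 0.0138), which became 1.19 (adjusted p = 0.0528) with a replicate block, -0.03 with TPM as deposited, and -0.48 in the fit of all 54 libraries. As deposited, the values at 8 h were -0.40 in PEO1 and 0.026 in PEO4, and neither was called. The PEO1 value at 8 h was 0.98 without 8 h replicate 2 (adjusted p = 0.0817). The PEO1 call at 24 h was lost without untreated replicate 2 (0.54, adjusted p = 0.209), 24 h replicate 1 (0.78, adjusted p = 0.0775), replicate 2 (0.80, adjusted p = 0.0689) or replicate 3 (0.83, adjusted p = 0.0584). PEA1 ranged from 24.5 to 43.9, PEA2 from 36.9 to 94.1 and PEO23 from 40.0 to 63.6 apart from 83.2 in 1 library at 24 h.

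TRIB3 levels differed between lines and were not called over time after rescaling, while as deposited TRIB3 was called lower at 8 h in PEO1 (-1.95, adjusted p = 0.0106) and PEO4 (-1.67, adjusted p = 0.0258). PEO1 had the highest group mean at each time, with 51.1, 49.9 and 42.4 untreated, 40.6 and 37.9 at 8 h, and 57.8, 45.3 and 38.6 at 24 h. PEO4 had 5.39, 1.73 and 7.68 untreated, 5.15 and 0 at 8 h, and 7.58 at 24 h. PEA2 had 19.5, 32.6 and 12.3 untreated, 23.9 and 13.1 at 8 h, and 41.0, 33.2 and 28.2 at 24 h. PEA1 ranged from 9.73 to 21.4, PEO14 from 3.64 to 14.5 and PEO23 from 1.66 to 14.0. With a replicate block, PEO4 at 24 h was 2.0 above untreated and 2.75 above 8 h, which rests on 1 library at 24 h and on the library at 0. The labels do not pair the untreated cultures with the treated ones.

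CHAC1, which breaks down glutathione, was not called against untreated in any of the 5 lines. Its levels were low: 0.644 to 8.49 in PEA1, 3.78 to 14.7 in PEA2, 4.22 to 9.80 in PEO1, 0 to 11.2 in PEO4 and 5.28 to 10.6 in PEO14. PEO23 stood apart at 24 h, with 6.67, 0.536 and 5.77 at 8 h and 25.0, 12.3 and 28.6 at 24 h. After rescaling, the higher values, 25.0 and 28.6, were above every other kept library, of which the highest was 14.7 in untreated PEA2. As deposited, that PEA2 library stood at 24.99. TPM was divided by 0.364, 1.18 and 0.662 in PEO23 24 h replicates 1 to 3, so this order belongs to the rescaled values. The step in PEO23 was not called (adjusted p = 0.121) and was 2.33 with a replicate block (adjusted p = 0.0119).

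SESN2, a sestrin that signals leucine state to mTORC1, was the lowest member on this per-length scale, at 0 to 12.1 with a median of 2.60. In PEO1 it had 3.89, 2.24 and 4.33 untreated, 0.732 and 1.37 at 8 h, and 4.73, 4.09 and 4.26 at 24 h. Both 8 h libraries lay below all others of that line. SESN2 fell by 1.12 at 8 h (SE 0.45, adjusted p = 0.0453), the only call of this gene against untreated. That call was lost without untreated replicate 1 (-1.04, adjusted p = 0.102), untreated replicate 3 (-0.98, adjusted p = 0.116), 8 h replicate 1 (-0.89, adjusted p = 0.237) or 8 h replicate 2 (-1.34, adjusted p = 0.0881). It was also lost in 5 of the 8 other settings (all 54 libraries, the 75th percentile as scale, a pseudocount of 0.1, no filter, and only the compared groups).

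DDIT4, which encodes an mTORC1 inhibitor that is also induced by hypoxia and glucocorticoids, was called in no comparison of times after rescaling, and was called lower as deposited at 8 h in PEO1 (-1.47, adjusted p = 0.0236) and PEO4 (-1.72, adjusted p = 0.00761). PEO1 had 40.5, 70.5 and 33.5 untreated, 38.8 and 74.5 at 8 h, and 68.4, 48.3 and 48.9 at 24 h, with full overlap. PEO4 had 53.8, 91.2 and 28.5 untreated, 54.2 and 41.8 at 8 h, and 59.4 at 24 h. PEA1 went from 11.8 untreated to 4.54, 4.16 and 7.81 at 8 h and 14.0, 11.3 and 18.4 at 24 h. PEA2 ranged from 10.6 to 46.6, PEO14 from 16.0 to 25.3 and PEO23 from 13.8 to 35.3. DDIT4-AS1 overlaps DDIT4 on the opposite strand in GENCODE v29.

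Later against earlier time gave few calls. From 8 h to 24 h, no member was called in PEA1 (0.0278% of all genes called, 1 member at an unadjusted p under 0.05 by limma) or in PEA2 (0% of all genes, 2 members). One member rose in PEO1 against 0.217% of all genes, namely ATF3, and 1 in PEO14 against 2.53%, again ATF3. In PEO4 1 member, CEBPB, rose against 14.1%. PEO23 had 0 calls by limma against 0.394%, with 4 members at an unadjusted p under 0.05. The ASNS change in PEO4 missed the threshold (-1.76 ± 0.62, adjusted p = 0.0563).

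The resistant and sensitive lines differed within pairs. Untreated PEA2 had 3 members higher than PEA1 and none lower, where 11.5% of all genes were called. These were ATF3 at 3.02 ± 0.56 (adjusted p = 0.00023), ASNS at 2.54 ± 0.59 (adjusted p = 0.00301) and ATF4 at 1.23 ± 0.31 (adjusted p = 0.00737), all against 1 PEA1 library. At 8 h only ASNS was higher, by 1.66 ± 0.46 (adjusted p = 0.0115), against 16.2% of all genes, and it was lost without PEA2 8 h replicate 1 (1.54, adjusted p = 0.102) or replicate 3 (1.77, adjusted p = 0.0606). At 24 h 4 members were higher and none lower against 18.7%. They were ASNS (2.60 ± 0.41, adjusted p = 1.62e-05), ATF3 (1.43 ± 0.39, adjusted p = 0.00839), PSAT1 (1.13 ± 0.29, adjusted p = 0.00528) and ATF4 (0.97 ± 0.22, adjusted p = 0.0016). Without PEA1 24 h replicate 3 the values of ATF3 (1.15, adjusted p = 0.0763) and PSAT1 (0.93, adjusted p = 0.0513) were not called. With all 54 libraries the untreated differences of ATF4 (0.60) and ASNS were not called. In that fit, set-aside PEA1 untreated replicate 3 had ATF4 at 387, inside the untreated PEA2 range of 284 to 468. In the labels PEA1 was used at higher passages than PEA2.

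PEO4 against PEO1 had mostly the other sign. Untreated, 2 members were higher and 5 lower, where 28.4% of all genes were called. TRIB3 was lower by 3.19 (SE 0.52, log2 -3.19, adjusted p = 2.07e-05), and the groups did not overlap. PSAT1 (-1.94 ± 0.29, adjusted p = 7.52e-06) and ASNS (-1.80 ± 0.41, adjusted p = 0.00143) were lower with no overlap, ASNS at -2.44 without PEO4 untreated replicate 3 (adjusted p = 1.54e-05). ATF3 (-1.13 ± 0.39, adjusted p = 0.0307) and SESN2 (-1.16 ± 0.40, adjusted p = 0.0293) were lower with overlapping libraries. CEBPB (2.11 ± 0.35, adjusted p = 2.58e-05) and DDIT3 (1.37 ± 0.45, adjusted p = 0.0225) were higher with no overlap. The ATF3 call was lost without PEO1 untreated replicate 2 (-0.82, adjusted p = 0.158), PEO1 untreated replicate 3 (-1.08, adjusted p = 0.0845) or PEO4 untreated replicate 2 (-0.58, adjusted p = 0.277). The DDIT3 call was lost without PEO1 replicate 1 (1.17, adjusted p = 0.0957), PEO1 replicate 2 (1.31, adjusted p = 0.055) or PEO4 replicate 3 (1.21, adjusted p = 0.07). The SESN2 call was lost without PEO1 replicate 1 (-1.08, adjusted p = 0.086), PEO1 replicate 3 (-1.02, adjusted p = 0.108) or PEO4 replicate 3 (-0.67, adjusted p = 0.215).

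Under the drug, TRIB3 and PSAT1 were called lower in PEO4 than in PEO1 at both times. At 8 h TRIB3 (-4.02 ± 0.63, adjusted p = 4.05e-05) and PSAT1 (-1.66 ± 0.36, adjusted p = 0.00202) were lower against 9.91% of all genes. TRIB3 was -2.71 without PEO4 8 h replicate 2 (adjusted p = 0.011), the library that lists it at 0, and -5.33 without PEO4 8 h replicate 1 (adjusted p = 1.82e-06). PSAT1 was -1.32 without PEO1 8 h replicate 2 (adjusted p = 0.0592). At 24 h 1 member was higher and 4 lower against 21.6%. CEBPB was again higher (2.11 ± 0.49, adjusted p = 0.00266), and ASNS (-2.66 ± 0.59, adjusted p = 0.00164), TRIB3 (-2.47 ± 0.73, adjusted p = 0.0157), ATF3 (-2.38 ± 0.56, adjusted p = 0.00269) and PSAT1 (-1.70 ± 0.42, adjusted p = 0.00401) were lower, all with 1 PEO4 library. PEO23 against PEO14 had 1 member higher at 8 h, PSAT1 at 1.14 ± 0.29 (adjusted p = 0.00726), against 14.8% of all genes. Without PEO14 8 h replicate 3 it was 0.97 (adjusted p = 0.0589). At 24 h 0 members were called by limma against 5.18%, with 1 at an unadjusted p under 0.05.

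Whether the drug response itself differed within a pair was tested as a difference of changes. No member was called by limma in any of the 7 such comparisons. For the PEA pair 0.339% of all genes were called for 8 h against untreated, 0.383% for 24 h against untreated and 0.00555% for 24 h against 8 h, with 1, 1 and 0 members at an unadjusted p under 0.05. For the pair of PEO1 and PEO4 the shares were 2.35%, 1.38% and 0.816%, with 2, 0 and 2 members. For PEO14 and PEO23, 24 h against 8 h, the share was 0.139%, with 3 members. For ATF3 the step from 8 h to 24 h in PEO4 minus that in PEO1 was -2.30 ± 0.74 (95% interval -3.75 to -0.86, adjusted p = 0.129). For CHAC1 the step in PEO23 minus that in PEO14 was 3.13 ± 1.13 (adjusted p = 0.233). A p that misses the threshold does not show that the lines responded alike.

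The direction of the resistant against sensitive difference was then compared between pairs, in 7 comparisons chosen after the members' values were seen; the pairs' comparisons share libraries. For PEO4 and PEO1 against PEA2 and PEA1, 1 member was higher and 6 lower untreated (20.1% of all genes called), 1 and 3 at 8 h (15.7%), and 1 and 4 at 24 h (25.9%). The largest of these were ASNS, with -4.34 untreated and -5.26 at 24 h, and ATF3, with -4.16 untreated and -3.81 at 24 h. Thus ASNS and ATF3 were higher in the resistant line of one pair and lower in that of the other. Against the PEA pair, PEO23 and PEO14 had 0 higher and 1 lower at 8 h (13.8%) and 0 and 3 at 24 h (11.1%). Against PEO4 and PEO1 they had 2 higher and 0 lower at 8 h (9.74%) and 1 and 0 at 24 h (7.11%).

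Other genes of the pathway were counted in fixed lists, described with no test of a list. Of 18 cytosolic tRNA synthetases, which load tRNAs with amino acids, 8 were higher and 2 lower in PEO1 at 8 h, 10 and 1 in PEO4, 11 and 1 in PEO14, 2 and 0 in PEA1 and 1 and 0 in PEA2. The shares of all genes called there were 41.9%, 53.5%, 30%, 5.90% and 14.3%, and the lists are to be read beside these. On the deposited scale the synthetases had 0 higher and 9 lower in PEO1, 1 and 7 in PEO4, and 0 and 1 in PEO14. KARS was called higher in 5 of 5 lines at 8 h (0.64 to 1.35) and SARS in 5 of 5 at 24 h (0.94 to 1.74). With TPM as deposited KARS ran from -0.47 to 0.40 at 8 h and was above 0 in 3 of 5 lines, and SARS ran from 0.37 to 0.92 at 24 h, and neither was called in any line. In the list of serine, glycine and one-carbon enzymes, MTHFD2 was called higher in 3 lines at 8 h and 4 at 24 h (0.75 to 2.78, and 1.07 to 3.07), and in 2 lines at each time with TPM as deposited. CBS of the same list was, as deposited, below 0 in 5 of 5 lines at both times, and called lower in 3 at 8 h and 2 at 24 h. Of the 14 enzymes, 0 were higher and 9 lower in PEO1 at 8 h as deposited, 1 and 9 in PEO4, 1 and 2 in PEO14, 0 and 0 in PEA1, and 0 and 1 in PEA2.

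Not every known target moved up. ATF5, a sister factor of ATF4, was called lower in 5 of 5 lines at both times (-3.42 to -1.29 at 8 h and -2.08 to -1.31 at 24 h). HSPA5, the endoplasmic reticulum chaperone BiP, was also lower in 5 of 5 at both times (-1.52 to -0.73, and -1.55 to -0.73), and with TPM as deposited in 4 of 5. CALR, another chaperone, was higher in 4 lines at 8 h and in 5 at 24 h, and at most 1 line with TPM as deposited. DNAJB9 of the chaperone list was above 0 as deposited in 5 of 5 lines at both times, and called higher in 2 at each. PMAIP1 and ATG5, from the same list of targets as ATF5, were likewise above 0 as deposited in 5 of 5 lines at both times. On that scale PMAIP1 was called higher in 1 line at 8 h and 2 at 24 h, and ATG5 in 1 at each. Of 10 tested amino acid transporters, 1 was higher and 5 lower in PEO1 and in PEO4 at 8 h, near the share of all genes called there (41.9% and 53.5%). As deposited, 0 were higher and 8 lower in PEO1, and 0 and 7 in PEO4. The list's medians there were -2.21 and -2.42, beside -1.14 and -1.12 over all genes. SLC7A1, which carries arginine and lysine, was lower in 3 lines at 8 h and 4 at 24 h, and in 3 at each time with TPM as deposited. The immediate early gene EGR1 was lower in 4 lines at each time (down to -5.37).

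Other lists were counted at 8 h in the same way. Of 22 chaperone and unfolded protein genes, 9 were higher and 3 lower in PEO1, 8 and 4 in PEO4, and 9 and 3 in PEO14. Of 19 p53 targets, 4 and 2, 5 and 8, and 3 and 2 were, in that order of lines. Of 20 genes of the eIF2 machinery, 9 and 1, 11 and 2, and 8 and 1 were, and none in PEA1 or PEA2 at either time, beside 41.9%, 53.5%, 30%, 5.90% and 14.3% of all genes at 8 h. With TPM as deposited, 0 and 8, 0 and 7, and 0 and 1 of the eIF2 machinery genes were called in PEO1, PEO4 and PEO14, so the higher calls did not remain. On that scale the chaperone list had 0 higher and 8 lower in PEO1, 1 and 7 in PEO4, and 1 and 3 in PEO14. The p53 targets had 0 and 7, 1 and 9, and 0 and 4 in those lines. After rescaling, the median change of the tRNA synthetases at 8 h was 0.60 in PEA1, 0.35 in PEA2, 0.52 in PEO1, 1.11 in PEO4 and 0.83 in PEO14. As deposited it was 0.18, -0.04, -1.17, -0.51 and 0.23, below 0 in PEA2, PEO1 and PEO4. PHGDH, the first enzyme of serine synthesis, differed within both pairs: untreated it was 2.09 higher in PEA2 than PEA1 (adjusted p = 3.16e-05) and -1.42 in PEO4 against PEO1 (adjusted p = 3.15e-05).

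**Figure D4:**
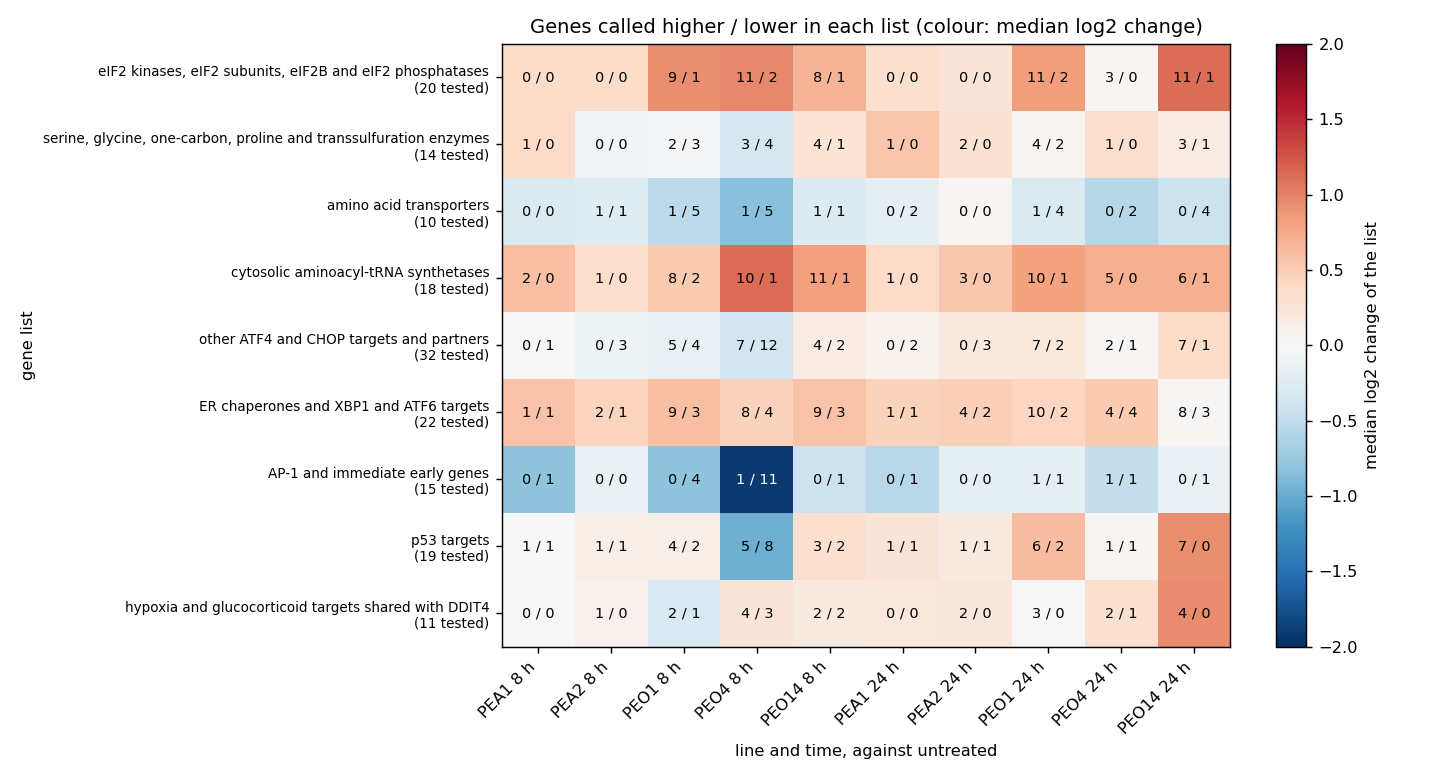
Number of genes called higher and lower (text in each cell) and median log2 change (colour) for 9 gene lists in 5 lines at 8 h and 24 h against untreated, on log2(rescaled TPM + 1). The tRNA synthetase list has 10 higher and 1 lower in PEO4 at 8 h and 0 lower in PEA1 and PEA2 at 8 h; its leading genes KARS and SARS are called in no line with TPM as deposited.

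Members tracked each other unevenly over the 17 group means, which share lines and differ in composition, so the correlations are descriptions. ASNS and ATF3 had Pearson r = 0.89, ASNS and PSAT1 0.72, CHAC1 and ASNS 0.69, and CHAC1 and ATF3 0.68. ATF4 stood at 0.65 with ATF3 and 0.59 with ASNS. TRIB3 tracked neither, at 0.09 with ASNS and -0.14 with ATF4, and PSAT1 and CEBPB ran opposite at -0.67. Among 10839 genes searched, the pattern most like that of ATF4 was GPX4 (r = 0.96, over 17 groups), and that most like ASNS was ZNF136 (0.95). The genes most like the others were GBP1 for ATF3 (0.90), C1QTNF1 for TRIB3 (0.92), CD59 for PSAT1 (0.92), FUZ for CEBPB (0.90), SECTM1 for DDIT4 (0.90), SNX18 for SESN2 (0.88), BEX2 for DDIT3 (0.85) and DNASE2 for CHAC1 (0.80).

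**Figure D5:**
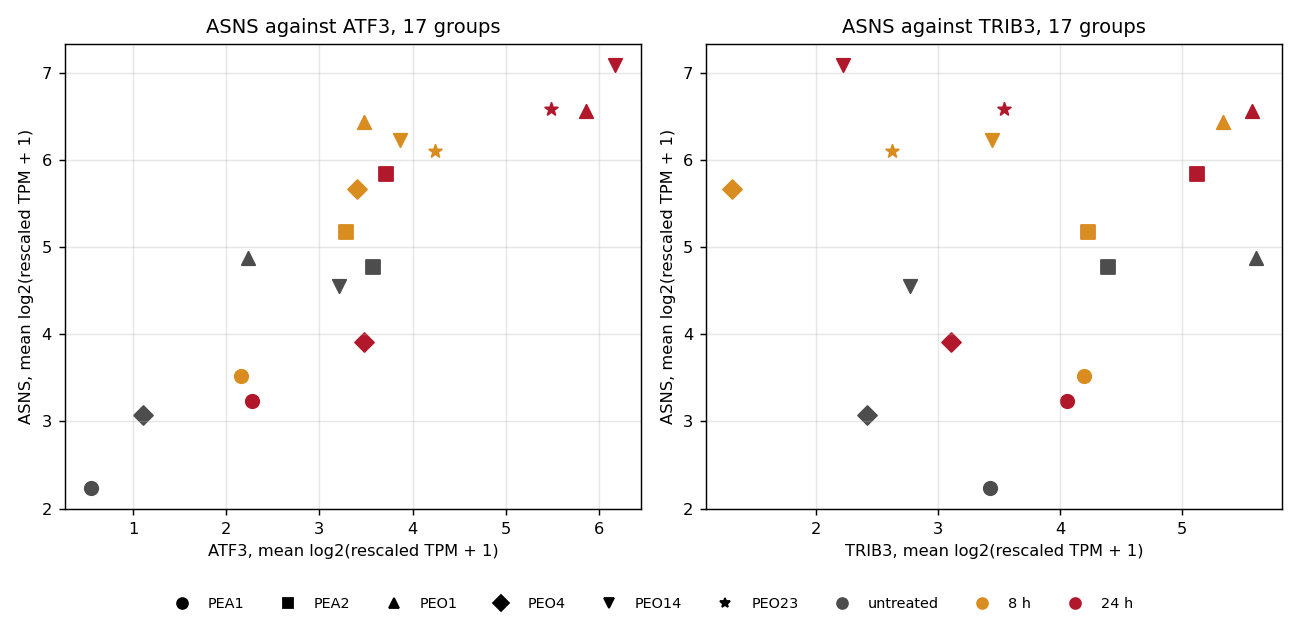
ASNS against ATF3 and against TRIB3 as group means of log2(rescaled TPM + 1), 1 point for each of 17 groups. ASNS follows ATF3 (r = 0.89) but not TRIB3 (r = 0.09), where the PEO1 groups lie far to the high TRIB3 side.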

How the data were processed

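The authors deposited 1 table of gene-level TPM (a length-adjusted share of transcripts) for 54 libraries, whose name points to RSEM. Bcl2fastq 2.18 and build hg19 are named in the submitters' processing notes. Which aligner, annotation or strand option was used is not given in the sources used here. Per the labels' protocols, cells were cultured for 48 h before treatment, and libraries came from a stranded total RNA kit with 200 ng of input, read as pairs of 75 bases. TPM keeps no depth, and a gene at 0 may be a failed estimate. Symbols turned into dates affected 28 genes, none of them a member.

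Libraries with under 12000 genes above 0 were set aside. TPM was rescaled by the median ratio over genes above 0 in all 42 kept libraries. Genes of at least 1 TPM in at least 3 libraries were tested with limma 3.58.1 in R 4.3.3 (mean-variance trend, 17 groups, 25 residual degrees of freedom, log2 of rescaled TPM with a pseudocount of 1). P-values were adjusted by Benjamini-Hochberg over the tested genes of each of 38 comparisons, and calls were made at 0.05. Scripts were tested on simulated data. The alternatives were all 54 libraries, 2 other scalings, a pseudocount of 0.1, no filter, only the compared groups, robust moderation and a replicate block. Each library was also left out in turn where its group kept more than 1.

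The members and lists were chosen with earlier results of these data known. The 7 comparisons between pairs were added after the members' values were seen. All 10 members are named. From each list, up to 4 genes per kind of comparison with a mean of at least 5 rescaled TPM were eligible by number of calls, then by mean change, and for likeness the 5 highest correlations per member, of which the first is given. Markers of cell types were described only by level. Two-sided tests were used throughout.

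Same-numbered 8 h and 24 h libraries of a line share a passage label in 18 of 18 cases, so the labels pair them. Deviations from the group means were checked, and the 10 pairs with a value had correlations of -0.25 to 0.41, 2 of them over 0.1. The labels do not say that a replicate number stands for the same day in different lines, and whether it does was not tested.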

Additional observations from a re-analysis of the deposited data

Results flagged for a closer look

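The resistant against sensitive difference of a member differed between pairs in 23 tests by limma, all from comparisons chosen after the values were seen. Values are differences of log2 changes. At 8 h and at 24 h these comparisons share libraries, since each pair enters more than 1 of them, and untreated there was 1 comparison.

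Untreated, the difference of PEO4 against PEO1 minus that of PEA2 against PEA1 was -1.13 for ATF4 (adjusted p = 0.0356), -4.16 for ATF3 (3.36e-05), -4.16 for TRIB3 (0.00101), -3.19 for CHAC1 (0.0427), -4.34 for ASNS (3.86e-05), -2.74 for PSAT1 (0.000172) and 2.45 for CEBPB (0.00368), the values in brackets being limma's adjusted p. This rests on 1 untreated PEA1 library. The ATF4 call was lost without any of 4 libraries (PEA2 untreated replicate 1 or 2, PEO1 untreated replicate 1, or PEO4 untreated replicate 3), with values of -1.14 to -0.93. The CHAC1 call was lost without any of 5 (PEA2 replicate 2 or 3, PEO1 replicate 1 or 2, or PEO4 replicate 3), with values of -3.30 to -2.11, and CHAC1 was -3.91 without PEO4 replicate 2 (adjusted p = 0.0095). ASNS was -4.98 without PEO4 replicate 3 (adjusted p = 4.75e-07).

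At 8 h the same difference was -4.06 for TRIB3 (adjusted p = 0.00098), -2.43 for ASNS (0.0133), -2.23 for PSAT1 (0.00134) and 1.76 for CEBPB (0.0349). Without PEO4 8 h replicate 2, which lists TRIB3 at 0, the TRIB3 value was -2.75 (adjusted p = 0.0271), and without PEO4 8 h replicate 1 it was -5.37 (adjusted p = 2.27e-05). The ASNS call was lost without PEA2 8 h replicate 1 (-2.32, adjusted p = 0.0512) or PEO4 8 h replicate 2 (-2.25, adjusted p = 0.0613). The CEBPB call was lost without any of 7 libraries, with values of 1.29 to 1.85. At 24 h it was -3.81 for ATF3 (adjusted p = 0.000101), -3.53 for TRIB3 (0.0039), -5.26 for ASNS (2.18e-06), -2.83 for PSAT1 (0.00011) and 2.35 for CEBPB (0.00431), with 1 PEO4 library. Under the 8 other settings and each library left out in turn, ATF3 untreated and at 24 h, TRIB3 untreated and ASNS at 24 h remained called. The single untreated PEA1 library and the single PEO4 24 h library could not be left out, so dependence on them was not tested that way.

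For PEO23 against PEO14 minus PEA2 against PEA1, ATF4 differed by -1.08 at 8 h (adjusted p = 0.0252). At 24 h ATF4 differed by -1.22 (0.0365), ATF3 by -2.12 (0.0403) and ASNS by -3.10 (0.00364), with 1 PEO14 library. The ATF4 call at 8 h was lost without any of 4 libraries (PEA1 8 h replicate 2, PEA2 8 h replicate 1, PEO14 8 h replicate 3, or PEO23 8 h replicate 2), with values of -0.99 to -0.96. The ATF4 and ATF3 calls at 24 h were each lost without any of 6 libraries, with values of -1.24 to -1.11 and -2.12 to -1.84.

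For PEO23 against PEO14 minus PEO4 against PEO1, TRIB3 differed by 3.21 (adjusted p = 0.0101) and PSAT1 by 2.80 (0.000114) at 8 h, and TRIB3 by 3.80 at 24 h (0.0212). The TRIB3 call at 8 h was lost without PEO4 8 h replicate 2 (1.90, adjusted p = 0.172), the library that lists TRIB3 at 0, and without PEO4 8 h replicate 1 the value was 4.52 (adjusted p = 0.000311). Without PEO23 8 h replicate 1 it was 3.81 and without PEO23 8 h replicate 3 it was 2.56, both called.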

How the results depend on the processing

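The count of members called over 5 lines at 8 h against untreated was 13, and it was 1 with all 54 libraries, 9 with no rescaling (0 higher, 9 lower), 4 with only the compared groups and 8 to 15 with 1 library left out, the lowest without PEO1 8 h replicate 2. At 24 h against untreated it was 13, and 3 with all 54 libraries, 4 with no rescaling (3 higher, 1 lower) and 12 to 16 with 1 library left out. For 24 h against 8 h it was 3, and 0 with all 54 libraries, 1 with a pseudocount of 0.1, 0 with only the compared groups and 2 to 5 with 1 library left out. The count for resistant against sensitive was 10 untreated, with 3 for all 54 libraries, 3 for only the compared groups and 8 to 11 with 1 library left out, and 13 under carboplatin, with 11 to 16. Differences of changes within a pair gave 0, with 1 for all 54 libraries and 2 for only the compared groups. Differences between pairs gave 23 (6 higher, 17 lower), with 12 for all 54 libraries (6 higher, 6 lower), 20 for no rescaling (3 higher, 17 lower), and 20 to 24 with 1 library left out.

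Of 75 called member results, 40 kept the call with no rescaling, 17 with all 54 libraries, 40 with only the compared groups, 65 with a pseudocount of 0.1, 72 with the 75th percentile as scale, 73 without the filter and 75 with robust moderation. With no rescaling, called values that turned below 0 were ATF4 (-0.76), ATF3 (-0.21), ASNS (-0.13) and PSAT1 (-0.40) in PEO1 and ATF4 (-0.17) in PEO4 at 8 h against untreated, and PSAT1 in PEO14 at 24 h (-0.029). DDIT3 (-0.97) and DDIT4 (-1.47) in PEO1 and DDIT3 (-1.13) in PEO4 at 8 h were above 0 and not called after rescaling, and were called lower with no rescaling. With all 54 libraries, called values that turned sign were ASNS in PEO1 at 8 h (-0.30), CEBPB in PEO4 at 8 h (0.061) and PSAT1 in PEO14 at 24 h (-0.48), and CHAC1 in PEO4 against PEO1 at 24 h, not called before, was called at -2.47. The cause was not tested.

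With the replicate block the counts in the order above were 13, 15, 4, 10, 15, 0 and 25, and 69 of the 75 calls were kept, 6 lost and 13 gained. For comparisons with untreated, passage labels overlapped in only 1 of 18 cases, so the block joins cultures that the labels do not pair. For lines, the labels do not say that a number stands for a shared day. Between lines, DDIT4 was gained in PEA2 against PEA1 at 8 h (1.20, adjusted p = 0.0381 by limma) and 24 h (1.06, adjusted p = 0.0319). TPM holds no depth, so the depth behind low values such as those of SESN2 and CHAC1 is unknown.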

Other observations

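The 12 libraries set aside gave scattered values for the members. In TPM as deposited, ATF4 in untreated PEO23 was 611, 0 and 436 in replicates 1 to 3, and ATF3 was listed at 0 in 9 of the 12 libraries. PEO14 replicates 2 and 3 at 24 h had ATF3 at 12.6 and 56.2. In the fit of all 54 libraries, ATF4 in PEO23 was 3.12 ± 1.02 above untreated at 8 h (adjusted p = 0.0159 by limma) and 3.66 ± 1.02 at 24 h (adjusted p = 0.0054), and DDIT3 was 4.72 ± 0.90 above at 8 h (adjusted p = 0.000111). All of these rest on untreated libraries with few genes listed, and are values of those libraries only.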
